A study of Mus musculus with 6 samples.

Results

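The glycolysis and lactate genes are 36 listed genes that carry glucose into the cell, break it down to pyruvate, turn pyruvate into lactate or steer it to the mitochondria, and move lactate across the membrane, with the hypoxia factor Hif1a added. The list names genes by their role in these steps. No measured value entered it as a rule, but it was chosen with earlier results of these data known. Each was read from 1 probe set, the one with the highest mean over the 6 arrays among the probe sets that the platform annotation assigns to this gene alone, and 32 of the 36 could be read, of 18193 genes read in all. Gpi1, Pfkfb1, Gapdh and Eno1 had no probe set of their own in this reading and were not analysed here. For Gapdh, the probe sets that name it list other loci too.

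RNA had been measured on Affymetrix mouse genome arrays in LSK cells, the bone marrow fraction without lineage markers and with Sca1 and c-Kit on its surface, in which haematopoietic stem cells and multipotent progenitors lie. The 3 IkL/L samples came from C57BL/6 mice homozygous for a hypomorphic allele of Ikzf1, which lowers the amount of functional Ikaros, a zinc finger transcription factor of blood cells, and each pooled the cells of 2 mice. The 3 WT samples came from C57BL/6 mice with the intact gene, each from 1 mouse. All mice were 6 to 7 weeks old, the labels name no treatment, and 100 ng of total RNA per sample entered a 2-cycle labelling. The comparison asks how the 2 genotypes differ in LSK cells. It sets pools of 2 mice against single mice, so that p-values measure the spread between samples of unlike make-up.

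Glycolysis turns glucose into pyruvate with a small yield of ATP and needs no oxygen. Lactate dehydrogenase then recycles the cofactor by reducing pyruvate to lactate, which leaves the cell through monocarboxylate transporters, while pyruvate dehydrogenase feeds pyruvate to the mitochondria unless its kinases switch it off. Haematopoietic stem cells in the marrow are known for leaning on glycolysis, and the hypoxia factor HIF raises many genes of the pathway when oxygen is low.

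Since several of these genes are known HIF targets, the promoter windows of both lactate dehydrogenase genes and of the lactate transporter Slc16a1 are shown, each from 250 bases before to 50 bases after a RefSeq start site (assembly GRCm38.p6). Ldha lay far above the upper quartile of every array, and Slc16a1 and Ldhb had the largest genotype difference above and below 0 among the members, as given further on. The windows run 5′ to 3′ on the gene's strand, and capitals mark the HIF core letters ACGTG or GCGTG on either strand. A palindromic CACGTG holds ACGTG on both strands and counts as 2 matches.
Ldha, chr7:46845554-46845853, plus strand: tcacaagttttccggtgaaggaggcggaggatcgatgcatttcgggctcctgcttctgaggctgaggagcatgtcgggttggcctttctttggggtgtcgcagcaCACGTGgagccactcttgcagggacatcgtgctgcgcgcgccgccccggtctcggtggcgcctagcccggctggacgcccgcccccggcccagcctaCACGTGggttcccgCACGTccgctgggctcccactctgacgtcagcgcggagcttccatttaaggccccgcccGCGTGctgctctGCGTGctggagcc
Ldhb, chr6:142507908-142508207, minus strand: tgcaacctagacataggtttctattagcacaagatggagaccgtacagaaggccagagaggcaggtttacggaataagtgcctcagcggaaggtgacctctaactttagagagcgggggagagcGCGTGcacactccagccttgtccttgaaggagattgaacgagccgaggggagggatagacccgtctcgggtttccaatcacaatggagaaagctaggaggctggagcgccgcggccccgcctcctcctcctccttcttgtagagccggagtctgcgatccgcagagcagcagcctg
Slc16a1, chr3:104638414-104638713, plus strand: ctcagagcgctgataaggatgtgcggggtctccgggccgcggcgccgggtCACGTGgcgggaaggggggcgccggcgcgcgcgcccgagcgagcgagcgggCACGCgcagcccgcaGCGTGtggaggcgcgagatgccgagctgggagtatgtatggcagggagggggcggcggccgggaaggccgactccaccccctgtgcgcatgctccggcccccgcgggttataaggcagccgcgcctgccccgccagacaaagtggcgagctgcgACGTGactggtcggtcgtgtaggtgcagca
The Ldha window held 7 matches, the Slc16a1 window 5 and the Ldhb window 1. A second Ldha window, at chr7:46846832-46847131, held 2.

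Of the 46 promoter windows listed for 31 of the measured members, 35 held at least 1 HIF core match, or 76.1%, beside 43.8% of all 32851 windows. Slc2a3 had no window in the table. Windows of members above the upper quartile of the signal on all 6 arrays held the letters in 80.6%, beside 65.4% of the windows of all genes at that level. The letters AGGAA or GGGAA, the core that Ikaros binds, stood in 42 of the 46 windows (91.3%), beside 87.1% of all windows. They occurred once in the first Ldha window, 2 times in that of Slc16a1 and not in that of Ldhb. Letters in a window are a description of sequence, and no binding was measured in these cells.

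The values are log2 RMA values, and the array medians lay at 4.79 to 4.88, the upper quartiles at 7.29 to 7.40. RMA gives no detection call, so that a value at or under the array median cannot be told from background, and probe sets differ in affinity, so that each level is set against its own array and not against another gene. The arrays correlated at 0.9861 to 0.995, and on the first principal component, of arbitrary sign, the IkL/L arrays lay at -28 to -19.6, WT 1 and WT 3 at 18.6 and -3.6, and WT 2 apart from all others at 52.7. This component held 39.3% of the variance. Ikzf1, the mutated gene, fell to 10.77, 10.85 and 10.93 in IkL/L cells, against 11.57, 11.59 and 11.44 in WT cells (log2 fold change -0.68, adjusted p = 0.0307 in limma). With single arrays left out its adjusted p was 0.0436 to 0.157, under 0.05 only without WT 3. A second, dimmer Ikzf1 probe set, above the median on all 6 arrays, gave -0.21 without overlap (adjusted p = 0.622 in limma). Whether either probe set lies in a part that the mutation changes was not analysed here. Of 8 LSK markers, 7 were measured, 6 of them above the upper quartile on all 6 arrays (Kit, Cd34, Flt3, Cd48, Gata2 and Mecom), with Slamf1 above the median, and Ly6a, which encodes Sca1, was not read. None was called, but Flt3, at -0.88, and Mecom, at -0.47, had an unadjusted p under 0.05 and lay lower on all IkL/L arrays than on any WT array, and the part of the fraction's make-up in the results was not tested. In bulk samples such as these, fewer cells of a type and less RNA per cell cannot be told apart.

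LSK cells of both genotypes carried strong signal for at least 1 isozyme of nearly every measured step of the pathway. Of the 32 members, 22 lay above the upper quartile on all 6 arrays, 5 lay above the median on all 6 without passing the upper quartile on all of them, and 5 lay at or under the median on all 6. Of all 18193 genes, each also read from its brightest probe set, 6534, 4185 and 6396 lay at these levels, and 1078 were mixed. Every measured step of glycolysis had at least 1 member above the upper quartile except the enolase step, whose main gene Eno1 was not read. The plot of levels by array shows this order along the pathway.

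**Figure D1:**
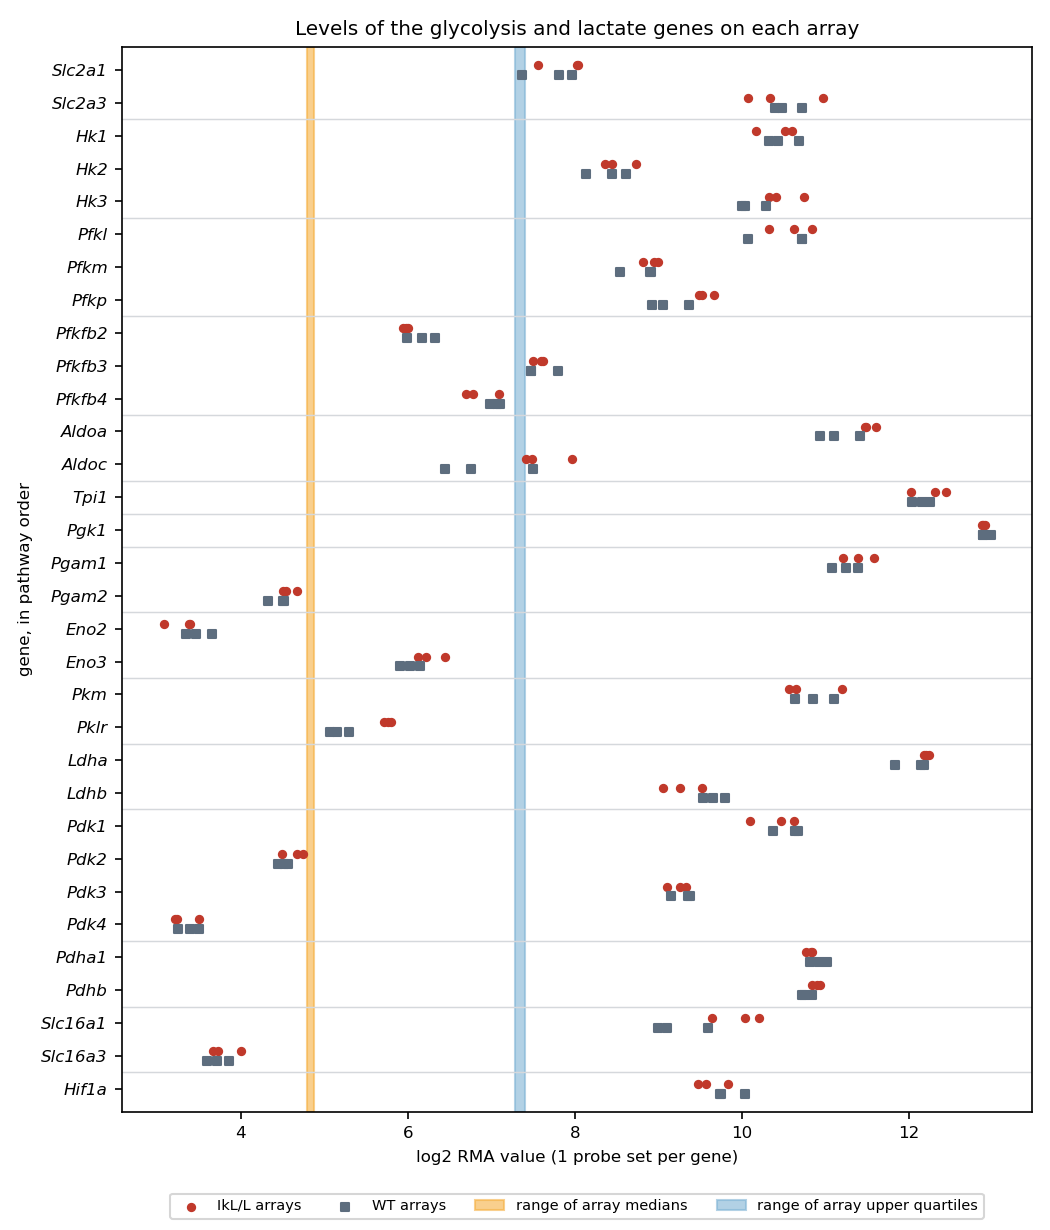
Log2 RMA value of each of the 32 measured genes (rows, in pathway order) on the 3 IkL/L arrays (red circles) and the 3 WT arrays (grey squares), with bands for the range of the array medians and upper quartiles. Pgk1, Tpi1 and Ldha lie far right of the upper quartile band on all arrays, and Pgam2, Eno2, Pdk2, Pdk4 and Slc16a3 lie left of the median band.

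Both glucose transporters in the list were above the upper quartile. Slc2a3, the high-affinity carrier, read 10.34, 10.97 and 10.08 on the IkL/L arrays and 10.73, 10.48 and 10.40 on the WT arrays. The groups overlapped, with 1 IkL/L array above and the other IkL/L arrays below all WT arrays, and the log2 fold change was -0.07 (95% interval -0.58 to 0.43). Only 2 of the 4 Slc2a3 probe sets lay above the median on all 6 arrays. The others, with means of 3.70 and 3.15, did not exceed the median on any, so that its strong signal depends on the probe set. Slc2a1, the widespread basal carrier, averaged 7.88 ± 0.27 in IkL/L cells and 7.72 ± 0.31 in WT cells (SD, n = 3 arrays each), with a log2 fold change of 0.16.

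All 3 hexokinases, which trap glucose as its phosphate, were above the upper quartile. Hk1 read 10.51, 10.17 and 10.60 in IkL/L cells and 10.43, 10.69 and 10.33 in WT cells, with overlapping ranges and a log2 fold change of -0.06. Hk2, the insulin- and HIF-responsive form, averaged 8.51 ± 0.20 in IkL/L cells and 8.40 ± 0.24 in WT cells.

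Phosphofructokinase-1, the main control point of the pathway, is built from liver, muscle and platelet type subunits, and all 3 genes, Pfkl, Pfkm and Pfkp, lay above the upper quartile. Pfkl read 10.33, 10.63 and 10.85 in IkL/L cells and 10.73, 10.08 and 10.72 in WT cells. The groups overlapped, with WT 2 the lowest of the 6 arrays, and the log2 fold change was 0.09 (95% interval -0.38 to 0.57). Pfkm averaged 8.92 ± 0.10 in IkL/L cells and 8.79 ± 0.21 in WT cells.

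The bifunctional enzymes of the Pfkfb family make and remove the sugar phosphate that activates phosphofructokinase-1. Pfkfb3, the form with the strongest kinase activity, was the one above the upper quartile, at 7.50, 7.60 and 7.62 in IkL/L cells and 7.47, 7.48 and 7.80 in WT cells, with a log2 fold change of -0.01. Pfkfb2 and Pfkfb4 lay between median and upper quartile, with log2 fold changes of -0.18 and -0.19.

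Of the aldolases, which split the sugar, Aldoa lay above the upper quartile on all 6 arrays and Aldoc on 4 of them. Tpi1, Pgk1 and Pgam1, the next enzymes down, had log2 fold changes of 0.11, -0.03 and 0.16 and were all above the upper quartile. Pgk1 varied least, with 12.90 ± 0.02 in IkL/L cells and 12.92 ± 0.05 in WT cells (SD, n = 3 arrays each). Pgam1 read 11.40, 11.22 and 11.59 in IkL/L cells and 11.08, 11.26 and 11.39 in WT cells, with overlap. The muscle type mutase Pgam2 and the neuronal enolase Eno2 did not exceed the array median on any array, and the muscle enolase Eno3 read 6.12, 6.45 and 6.22 in IkL/L cells and 6.03, 5.91 and 6.14 in WT cells, with 1 WT array inside the IkL/L range.

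Pkm, the pyruvate kinase of most tissues, read 10.65, 10.57 and 11.20 in IkL/L cells and 10.85, 10.64 and 11.11 in WT cells, so that the order of the replicates was mixed and the log2 fold change was -0.06. Its splice forms were not analysed here. Pklr, the form of liver and red cells, lay close above the array median.

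Ldha, whose subunit favours the reduction of pyruvate to lactate, lay above 98.8% of all probe sets by its mean. It read 12.21, 12.18 and 12.24 in IkL/L cells and 11.84, 12.15 and 12.18 in WT cells. Only WT 1 stood clearly below the rest, the groups overlapped narrowly, and the log2 fold change was 0.15 (95% interval -0.12 to 0.42, adjusted p = 0.778 in limma). Ldhb, whose subunit is known for favouring the reverse reaction, was also above the upper quartile.

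Of the 4 pyruvate dehydrogenase kinases, which switch the complex off, Pdk1 and Pdk3 lay above the upper quartile on all 6 arrays, and Pdk2 and Pdk4 did not exceed the median on any. Pdk1, a known HIF target, read 10.10, 10.47 and 10.62 in IkL/L cells and 10.37, 10.68 and 10.63 in WT cells. The ranges overlapped and the log2 fold change was -0.16. Pdha1 and Pdhb, the 2 subunits of the first enzyme of the complex, gave -0.11 and 0.12. Pdha1 itself read 10.77, 10.84 and 10.84 in IkL/L cells and 10.82, 11.02 and 10.93 in WT cells, and only WT 1 lay inside the IkL/L range.

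Of the 2 lactate transporters, Slc16a1 lay above the upper quartile on all 6 arrays. Slc16a3, the exporter of strongly glycolytic cells and a known HIF target, averaged 3.80 ± 0.18 in IkL/L cells and 3.72 ± 0.13 in WT cells, under the median of every array. Hif1a, the oxygen-regulated subunit of HIF, read 9.84, 9.48 and 9.57 in IkL/L cells and 9.75, 10.04 and 9.75 in WT cells, with IkL/L 1 inside the WT range and a log2 fold change of -0.22 (adjusted p = 0.72 in limma). HIF is controlled mainly through the stability of its protein, which was not measured.

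None of the 32 members passed the test of the genotype difference. In limma, with p-values adjusted by Benjamini-Hochberg over the 45037 probe sets, 0 members were called at an adjusted p under 0.05, beside 0.989% of all genes (0.748% higher and 0.242% lower), and the members' adjusted p lay between 0.0581 and 0.987. At an unadjusted p under 0.05 there were 7 of the 32 members, beside 11.2% of all genes. Of them, 6 were higher in IkL/L cells (Slc16a1, Pklr, Pfkp, Hk3, Aldoa and Aldoc), beside 5.83% of all genes, and 1 was lower (Ldhb), beside 5.35%. The groups did not overlap in 5 members that were higher in IkL/L cells, beside 7.62% of all genes, and in 1 that was lower, beside 9.59%. A p that misses the threshold does not show that a gene was alike in both genotypes, and the intervals of the members give the differences that 3 arrays per genotype left possible.

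The log2 fold changes of the members ran from -0.39 to 0.73, with 18 above 0 and 14 below. The share above 0 over all genes was 44.5%. Their median was 0.10, beside -0.02 over all genes. Among the 22 members above the upper quartile on all 6 arrays, 12 gave a log2 fold change above 0, beside 49.3% of all genes at that level, and the median was 0.10, beside -0.003. Of these 22, 4 were higher at an unadjusted p under 0.05, beside 5.75% of the genes at that level, and 1 was lower, beside 5.54%. The mean over the 32 members was 8.62, 8.68 and 8.75 on the IkL/L arrays and 8.57, 8.56 and 8.63 on the WT arrays, with WT 3 above IkL/L 1. The plot of log2 fold changes shows that the largest differences were spread over single isozymes of several steps.

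**Figure D2:**
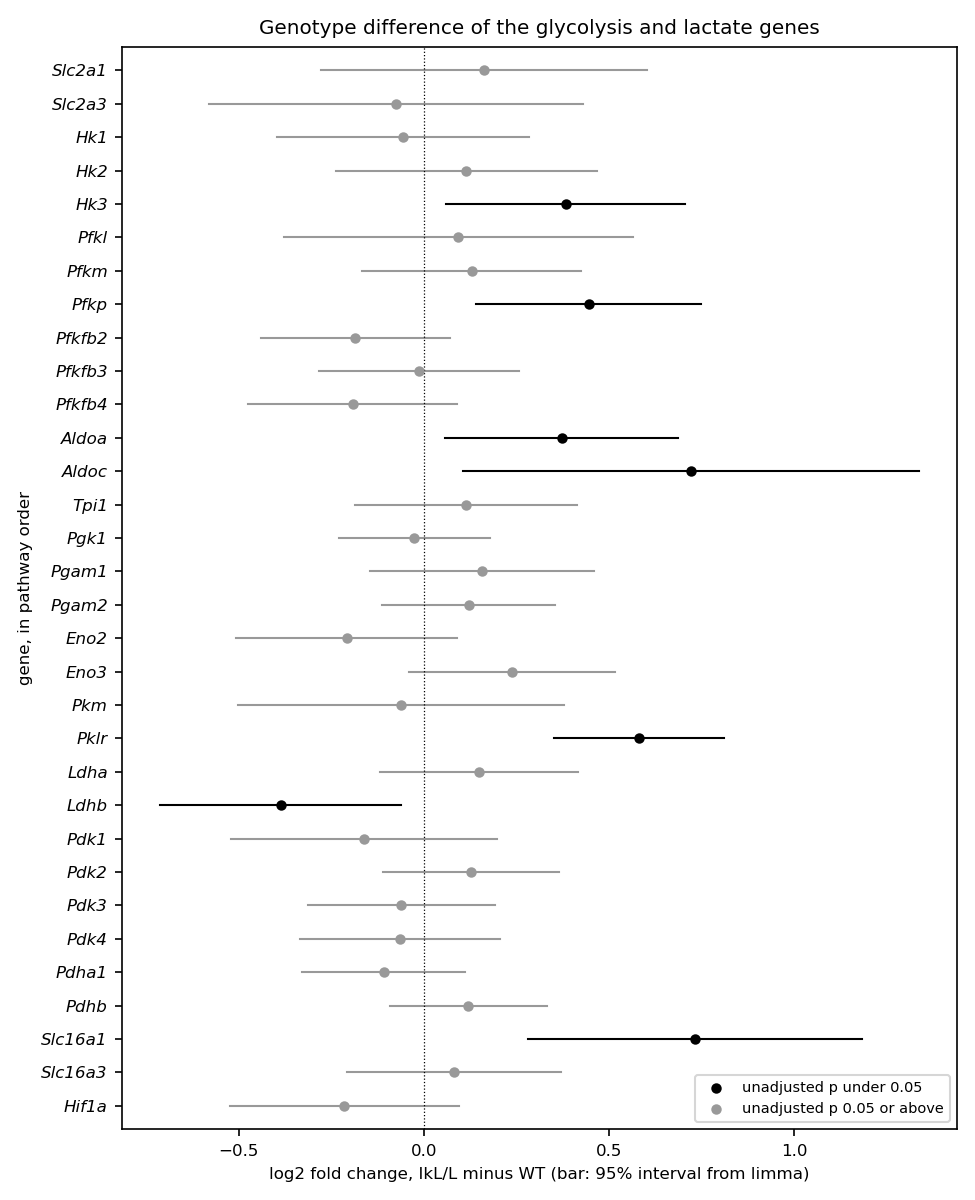
Log2 fold change of each gene (rows, in pathway order), IkL/L minus WT, as a point with its 95% interval from limma, black where the unadjusted p is under 0.05. The interval lies above 0 for Hk3, Pfkp, Aldoa, Aldoc, Pklr and Slc16a1 and below 0 for Ldhb, and no gene passed after adjustment.

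Slc16a1, which carries lactate and pyruvate together with protons, had the largest difference of the members. It read 10.04, 9.64 and 10.21 in IkL/L cells and 8.99, 9.11 and 9.59 in WT cells. All 3 IkL/L arrays lay above all WT arrays, by little between IkL/L 2 and WT 3. The means were 9.96 ± 0.29 in IkL/L cells and 9.23 ± 0.32 in WT cells (SD, n = 3 arrays each), a log2 fold change of 0.73 (95% interval 0.28 to 1.18), or 1.66-fold, with an unadjusted p of 0.00573 and an adjusted p of 0.247 in limma. Its other probe set did not exceed the median on any array. Bsg, the chaperone that brings this transporter to the membrane, averaged 9.13 ± 0.28 in IkL/L cells and 8.76 ± 0.16 in WT cells, with no overlap and an adjusted p of 0.561 (named after its values were seen).

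Pklr had the smallest p of the members, at a low signal. It read 5.71, 5.76 and 5.80 in IkL/L cells and 5.07, 5.30 and 5.16 in WT cells. The groups stood well apart for their spread, with a log2 difference of 0.58 (95% interval 0.35 to 0.81), an unadjusted p of 0.000389 and an adjusted p of 0.0581 in limma. With array weights the adjusted p was 0.0328, the only one under 0.05 among 13 alternatives, which gave 0.0328 to 0.244. Its other probe sets gave 0.34 and 0.16 and did not pass, and since WT cells lay near the array medians no fold is given.

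Several markers of red cell precursors, in which Pklr is known to be strong, also had higher values in IkL/L cells before adjustment. Of the 8 listed, 6 were measured, 0 were called and 4 were higher at an unadjusted p under 0.05 (Klf1, Ermap, Epor and Car1). The list mean was 6.93, 7.21 and 6.69 on the IkL/L arrays and 6.32, 6.11 and 6.28 on the WT arrays. Hba-a1 and Alas2, the defining genes of haemoglobin synthesis, lay at or under the median on all 6 arrays. The part of these cells in the Pklr difference was not tested.

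At the early steps of glycolysis, Pfkp, Hk3 and Aldoa were higher in IkL/L cells before adjustment. Pfkp read 9.53, 9.49 and 9.67 in IkL/L cells and 8.93, 9.06 and 9.37 in WT cells, without overlap, with a log2 fold change of 0.45 (95% interval 0.14 to 0.75), or 1.36-fold (unadjusted p = 0.00968, adjusted p = 0.311 in limma). Its other 2 probe sets, of low signal, gave 0.15 and 0.42.

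Hk3, the hexokinase of myeloid cells, read 10.41, 10.32 and 10.74 in IkL/L cells and 10.00, 10.04 and 10.29 in WT cells. The lowest IkL/L array stood just above the highest WT array. The log2 fold change was 0.38 (95% interval 0.06 to 0.71, adjusted p = 0.466 in limma), and its second probe set, also bright, gave 0.62 with an adjusted p of 0.226.

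Aldoa read 11.49, 11.48 and 11.61 in IkL/L cells and 11.10, 10.93 and 11.42 in WT cells. WT 3 came close to the IkL/L arrays without reaching them. The log2 fold change was 0.37 (95% interval 0.06 to 0.69, adjusted p = 0.466 in limma). All 5 of its probe sets gave values above 0, from 0.003 to 0.55, and 4 of them had an unadjusted p under 0.05. These 5 probe sets, like those read for Hk3, Tpi1 and Pgk1, carry _x_at, a suffix by which the maker marks probes that may also bind other transcripts. Other suffixes, such as the _s_at of the probe set read for Slc2a3, were not counted. Aldoc, a second aldolase, read 7.42, 7.97 and 7.48 in IkL/L cells and 7.50, 6.45 and 6.76 in WT cells. WT 1 lay inside the IkL/L range, and the wide spread left the log2 fold change of 0.72 with an interval of 0.10 to 1.34 and an adjusted p of 0.473.

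Ldhb was the member with the largest difference in the other direction. It read 9.53, 9.26 and 9.05 in IkL/L cells and 9.80, 9.54 and 9.66 in WT cells. The groups did not overlap, but IkL/L 1 lay next to WT 2. The means were 9.28 ± 0.24 in IkL/L cells and 9.67 ± 0.13 in WT cells (SD, n = 3 arrays each), a log2 fold change of -0.39 (95% interval -0.71 to -0.06, adjusted p = 0.465 in limma). All 4 Ldhb probe sets, each above the upper quartile on all 6 arrays, gave values below 0, from -0.66 to -0.39, each with an unadjusted p under 0.05, and in 3 of the 4 the groups did not overlap. The lowest adjusted p among them was 0.204. Of the 4, 2 carry the suffix for probes that may also bind other transcripts, and the one read for the gene does not. Probe sets of 1 gene read the same RNA samples and are not replicates.

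**Figure D3:**
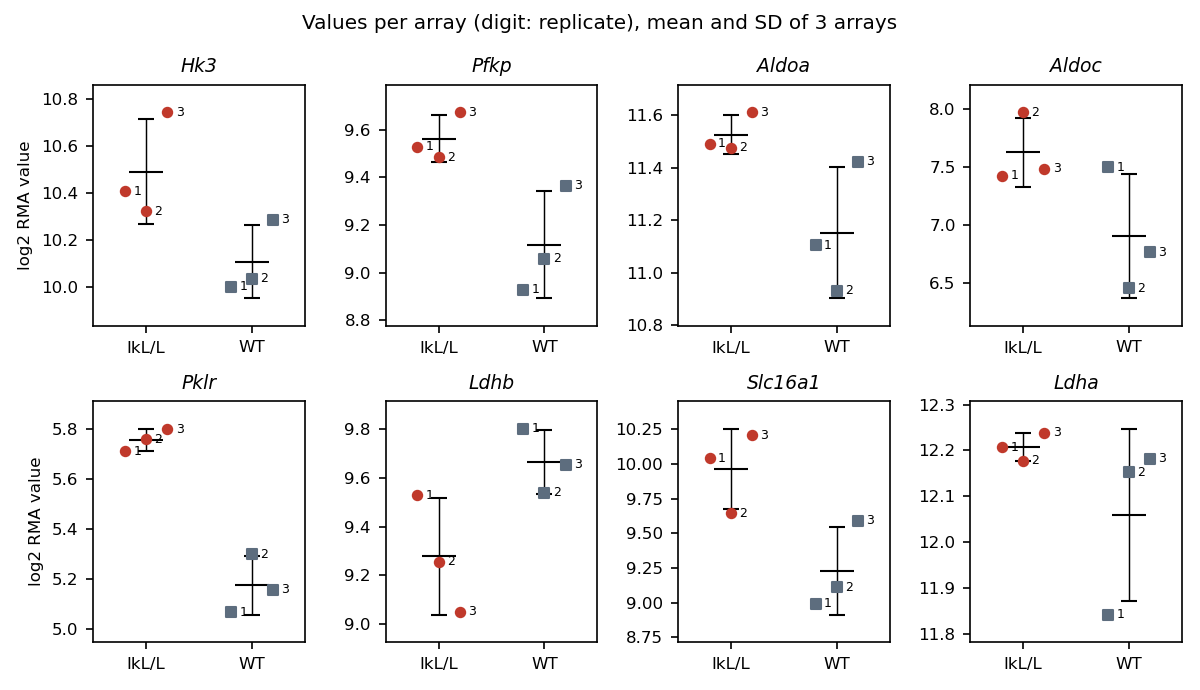
Log2 RMA value on each array (digit: replicate number) in IkL/L cells (red circles, left) and WT cells (grey squares, right) for the 7 genes with an unadjusted p under 0.05 and for Ldha, with the mean and SD of 3 arrays. Each panel has its own axis, which does not start at 0; the groups lie apart in Hk3, Pfkp, Aldoa, Pklr, Slc16a1 and Ldhb and overlap in Aldoc and Ldha.

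Over all members the probe sets of a gene did not always point the same way. The members had 70 probe sets in all, of which 0 were called and 18 had an unadjusted p under 0.05, beside 8.84% of all probe sets. Of the 19 members with several, 12 had all of them on 1 side of 0. Those of Hif1a ran from -0.30 to 0.41, and Pdha1, read at -0.11, gave 0.20 by its other probe set.

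**Figure D4:**
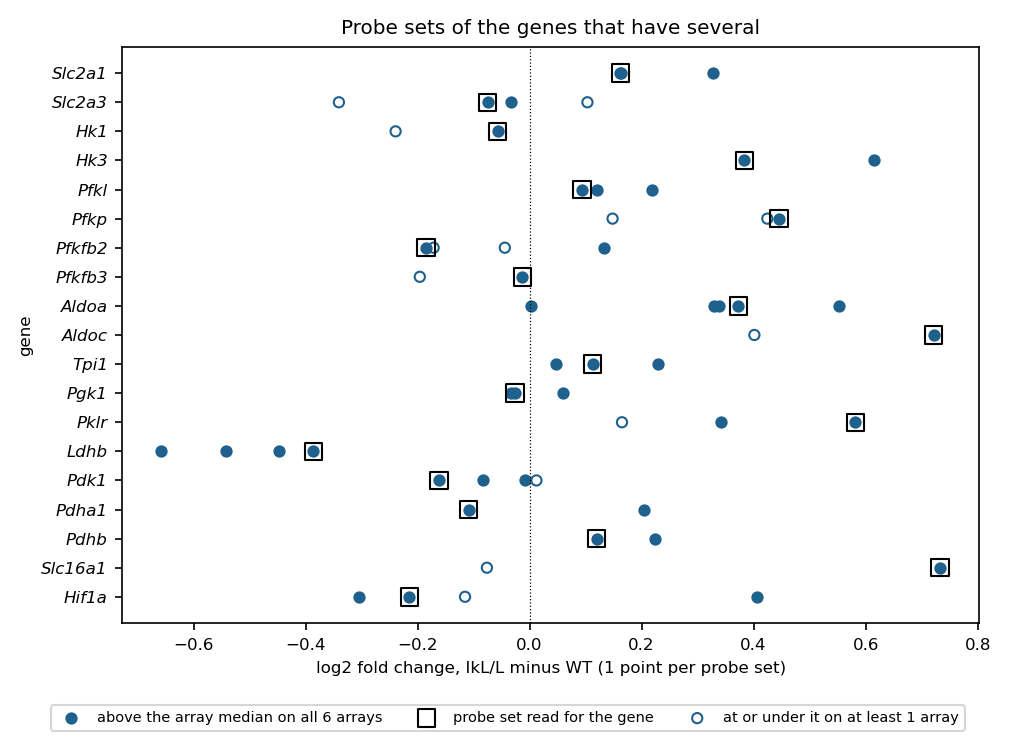
Log2 fold change, IkL/L minus WT, of every probe set (points) of the 19 genes with more than 1, filled where the probe set exceeded the array median on all 6 arrays, with a square around the probe set read for the gene. The 4 probe sets of Ldhb all lie left of 0 and the 5 of Aldoa right of it, while those of Hif1a lie on both sides.

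Genes of the granulocyte and monocyte progenitors stood higher in IkL/L cells beside these differences. Of the 8 markers listed, 7 were measured, all 7 were higher at an unadjusted p under 0.05 without overlap, and 3 rose after adjustment (Elane, Ms4a3 and Csf1r). With single arrays left out Csf1r passed in all 6 fits, and Elane and Ms4a3 in 2, without IkL/L 2 and without WT 3. None of the 7 lay under the median. The list mean was 11.76, 11.45 and 11.82 on the IkL/L arrays and 10.06, 10.10 and 10.63 on the WT arrays. Hk3, Pfkp and Slc16a1 ordered the 6 arrays exactly as this mean did, which was noticed after their values were seen. This order held for 3 of 32 members (9.38%), beside 63 of all genes (0.346%). It sets every IkL/L array above every WT array, so that only genes higher without overlap can have it. Of those there were 5 among the members and 1387 among all genes. As the match was noticed in these same values, the counts are a description and no test. Only this marker list was compared in this way. The WT 1 and WT 2 means, 10.06 and 10.10, lay close. The order also depends on the probe set. The second bright probe set of Hk3 read 9.49 on WT 1 and 9.25 on WT 2, the other way round. The part of such progenitors in the differences of Hk3, Pfkp and Slc16a1 was not tested.

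Markers of megakaryocytes and platelets moved with genotype as well. All 7 listed were measured, 6 were higher at an unadjusted p under 0.05, and 3 rose after adjustment (Itgb3, Selp and Vwf), Itgb3 in 5 of the 6 fits with an array left out, Vwf in 3 and Selp in 2. The list mean was 9.07, 9.34 and 8.95 on the IkL/L arrays and 7.71, 7.31 and 8.07 on the WT arrays, and none of the 7 lay at or under the array median on any array. Pfkp encodes the platelet type subunit. Among 6 measured B cell markers, 2 rose (Ms4a1 and Vpreb1). The list means were 5.24 to 5.61 in IkL/L cells and 4.67 to 4.78 in WT cells. This list was mixed, with 4 markers above 0 and 2 below, Pax5 at -0.22 and Ebf1 at -0.23. Ebf1 was lower without overlap and lay at or under the median on all 6 arrays. Vpreb1 passed in all 6 fits with an array left out and Ms4a1 in 4. Lcn2, of 8 mature myeloid markers, and Cdh5, of 7 stromal and endothelial ones, rose too. Lcn2 passed in 1 of those fits and Cdh5 in all 6. Their lists were mixed. Of the mature myeloid markers, 6 lay above 0 and 2 below, with C1qa at -0.87. Of the stromal and endothelial markers, 3 lay above 0 and 4 below, with a median of -0.76. Among these, Col1a1, at -1.43, was lower without overlap. The part of these cells in the members' differences was not tested. The proliferation markers, in contrast, gave 0 of 7 at an unadjusted p under 0.05, with a median log2 fold change of 0.03 and overlapping list means.

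Without WT 2, the array that stood apart, 0 members were called, beside 0.588% of all genes, and 4 had an unadjusted p under 0.05 (Pfkp, Pklr, Ldhb and Slc16a1), beside 9.83% of all genes. Slc16a1 then gave 0.67, Pklr 0.64, Pfkp 0.42 and Ldhb -0.45. Hk3, Aldoa and Aldoc gave 0.35, 0.26 and 0.49 and had unadjusted p-values of 0.0634, 0.0795 and 0.0814. The median of the members was 0.05. With each array left out in turn, Slc16a1, Pklr and Pfkp had an unadjusted p under 0.05 in all 6 fits. Hk3 and Aldoc did in 3 of the 6, and Aldoa and Ldhb in 2. For Ldhb these were the fits without IkL/L 1 and without WT 2, and its unadjusted p was 0.0899 without IkL/L 3.

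The neighbouring pathways had no called gene either. In the tricarboxylic acid cycle, 15 of 16 genes were measured, all above the upper quartile on all 6 arrays, with 0 at an unadjusted p under 0.05. Their log2 fold changes ran from -0.05 to 0.33, with 13 above 0 and a median of 0.13. Sdhd, a subunit of succinate dehydrogenase, had the smallest p, with a log2 fold change of 0.33 and an adjusted p of 0.571 in limma.

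Of the pyruvate dehydrogenase complex and the pyruvate carriers, 6 of 7 were measured and 1 had an unadjusted p under 0.05, the binding protein Pdhx, at 0.28 (adjusted p = 0.526). In the pentose phosphate pathway it was 1 of 6 measured genes, Rpia, which isomerises ribose phosphate, at 0.32 (adjusted p = 0.396). Of 19 measured further isozymes and transporters of the same steps, 4 had an unadjusted p under 0.05, of which 2 were lower in IkL/L cells. The smallest p belonged to the glucose transporter Slc2a12 at -0.37 (adjusted p = 0.295), which lay at or under the median on all arrays.

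The 16 HIF regulators and further HIF targets were all measured, and their median was -0.04. An unadjusted p under 0.05 was reached by 4, of which 2 were higher in IkL/L cells. Ndrg1, a stress and hypoxia responsive gene, read 11.24, 11.58 and 11.27 in IkL/L cells and 10.63, 10.56 and 10.80 in WT cells, apart in all arrays, with a log2 fold change of 0.70 (95% interval 0.41 to 0.99, adjusted p = 0.0724 in limma). Egln1, the main oxygen sensor that marks HIF for decay, read 9.37, 9.39 and 9.40 in IkL/L cells and 9.76, 9.73 and 9.81 in WT cells, a log2 fold change of -0.38 (adjusted p = 0.158), and is named after its values were seen. Adm and Bnip3 gave log2 differences of 1.20 (adjusted p = 0.106 in limma) and -0.29 (adjusted p = 0.509), each without overlap. Adm had the low signal of a gene above the median on 5 of the 6 arrays. Of the members described here as HIF targets or HIF-responsive, Ldha gave 0.15, Hk2 0.12, Slc16a3 0.08 and Pdk1 -0.16. The 95% interval of each held 0, so that no direction is shown for them. These genes were picked by that description and by no rule, and they do not stand for all HIF targets among the members. The other members, among them Aldoa and all others whose interval left out 0, were not sorted by HIF dependence. The part of HIF in the members' differences was not tested.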

How the data were processed

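The authors deposited log2 values made from the arrays with RMA (background correction, quantile normalization and median polish), and the submitters' processing notes name R 2.8. The study's methods describe a normalization shared with thymocyte arrays, and whether the deposited numbers come from it was not checked. Of 45037 probe sets, 34945 have 1 gene in the platform annotation, 932 several and 9160 none listed. Symbols were updated by Entrez number for 34741 of them through a RefSeq gene table (GRCm38.p6). Genotype was tested two-sided by lmFit and eBayes of limma 3.58.1 (R 4.3.3). Values on every array are given for members at an unadjusted p under 0.05, the brightest member of each step with several and Hif1a. Genes of other lists were those of smallest p, unless said otherwise, and marker genes named beside a count were chosen after their values were seen. Members and lists were chosen with earlier results of these data known. Residuals of same-numbered samples correlated at 0.0084, -0.112 and 0.0789 over all probe sets. Such values cannot tell whether these samples were handled together, and the labels state no pairing. The fit was tested on simulated data. For arrays, their number limits the precision. Alternatives were 2 scalings, 2 filters on dim probe sets, other moderation, array weights, the replicate block, reading a gene as its probe sets' mean, and leaving out each array.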

Additional observations from a re-analysis of the deposited data

How the results depend on the processing

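The 14 alternatives called 0 members lower, and 0 higher except with array weights, which called 1 (Pklr at 0.603, adjusted p = 0.0328). With the replicate block, a pairing that the labels do not state, 0 members were called, 7 had an unadjusted p under 0.05 and the median was 0.103. Leaving out each array in turn gave 4 to 6 members at an unadjusted p under 0.05 (4 without IkL/L 3, without WT 1 or without WT 2) and 0 called members in either direction. The median of the members was then 0.0131 to 0.103, at 0.0131 without IkL/L 3, 0.0308 without WT 1 and 0.0509 without WT 2. Among the alternatives, the share over all genes was computed only for the fit without WT 2. The member counts of the other alternatives therefore have no background beside them and are not read further. Signs turned in uncalled members near 0. Pfkfb3 gave 0.00418 with each array centred on its median, Pfkl -0.0566 with array weights and Pdha1 0.0478 as the mean of its probe sets. With single arrays left out, Pfkfb3 ran from -0.0691 to 0.095, Pkm from -0.259 to 0.0591, Hk1 from -0.143 to 0.0721, Slc2a3 from -0.331 to 0.118 and Pfkl from -0.12 to 0.23. With each gene read as the mean of its probe sets, Slc16a1 gave 0.328, as its second probe set is dim. Pklr was not tested with probe sets under a mean of 6 left out. The causes of these shifts were not tested otherwise.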

Other observations

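Of the 6 genes of gluconeogenesis, all measured, 0 were called, 2 were higher at an unadjusted p under 0.05 and the median log2 fold change was 0.15. Pcx, the pyruvate carboxylase that refills the citric acid cycle, read 5.65, 5.92 and 5.78 in IkL/L cells and 5.38, 5.21 and 5.46 in WT cells, with no overlap and a log2 difference of 0.43 (adjusted p = 0.243 in limma). Pck1, Fbp2 and G6pc lay at or under the median on all 6 arrays.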
